A study of Mus musculus with 7 samples.

Results

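The genes described here encode 9 peptide transmitter precursors of enteric neurons and the neuronal nitric oxide synthase: Nos1, Vip, Gal, Cartpt, Tac1, Grp, Npy, Penk, Nmu and Sst. They were chosen by gene symbol, with earlier results of these data known, and the probe set of each was the one that the platform annotation pairs with that gene symbol alone. All 10 were measured, each by 1 probe set, out of 19938 genes in the table. The series holds 7 microarrays of cells that were sorted by fluorescence from the whole bowel of mice, taken at embryonic day 17.5. The 4 YFP-positive samples hold enteric neural crest-derived cells, or ENCDC, and the 3 YFP-negative samples are the remaining bowel cells of embryos of the same genotype, Wnt1-Cre; R26R-EYFP. All embryos therefore carried both alleles: Cre under the Wnt1 promoter, which works in the developing neural crest and dorsal neural tube, and a reporter at the Rosa26 locus that makes EYFP once Cre has acted. ENCDC are a mixture of enteric neurons, glia and progenitors. The YFP-positive samples also gave bright signal for intestinal epithelium markers, at a mean log2 level of 7.80 to 8.95, against 8.47 to 8.59 in the YFP-negative samples. The source of that signal was not tested. Below, a level in ENCDC means the level in the YFP-positive samples as sorted. The labels do not say how many embryos went into a sample or whether its group's samples were from separate litters, so each p-value reflects the spread of these samples alone.

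The enteric nervous system controls the movement, secretion and blood flow of the bowel, and its neurons are classed by the transmitters they make. Inhibitory motor neurons relax smooth muscle with nitric oxide, made by Nos1, and with vasoactive intestinal peptide, and excitatory motor neurons contract it with acetylcholine and the tachykinins. Peptide transmitters are cut from precursor proteins in secretory granules, and several of them are also made by the hormone-secreting enteroendocrine cells of the gut epithelium or by extrinsic sympathetic neurons.

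Of the 10 genes 6 were higher in ENCDC and 0 were lower at a limma adjusted p under 0.05, where 8.39% of all genes were higher and 9.11% lower. The genes of galanin, vasoactive intestinal peptide and the CART peptides and Nos1 differed most, from 7.01-fold to 20.7-fold, and Tac1 and Grp differed about as much as each other, by 3.02-fold and 2.99-fold. Npy, Nmu, Penk and Sst did not pass, and of these only Sst had a lower mean in ENCDC. The levels of the groups did not overlap for 7 genes with ENCDC above and for 1, Sst, with ENCDC below, while over all genes 13.5% did not overlap in each direction. The median log2 fold change was 1.59 over the 10 genes and 0.01 over all genes tested.

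**Figure D1:**
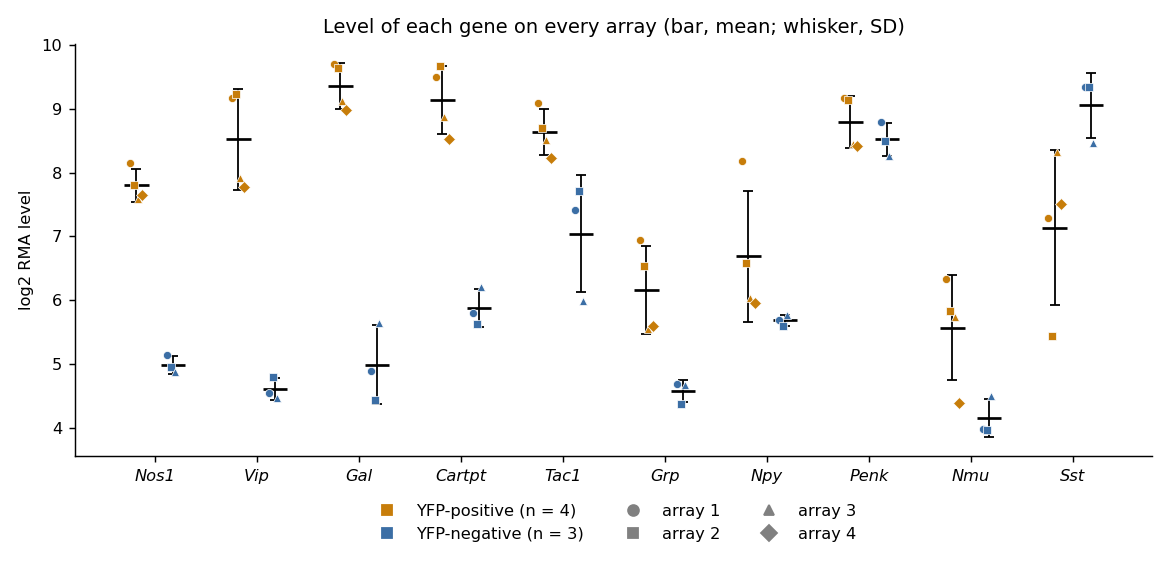
Log2 RMA level of each gene on every array, with YFP-positive arrays (orange, n = 4) left of YFP-negative arrays (blue, n = 3), bars for the mean and whiskers for the SD. Vip, Gal, Cartpt and Nos1 lie at 7.59 or above on every YFP-positive array and at 6.21 or below on every YFP-negative array, whereas the groups overlap for Penk and Nmu and Sst is higher on the YFP-negative arrays.

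The bases before the transcript start of 3 of these genes, Vip, Cartpt and Sst, are shown because they hold the cAMP response element or its core, and Gal is shown beside them as the gene with the largest difference and no such letters. The cAMP response element, first described in the somatostatin gene, is bound by transcription factors of the CREB family. Its letters, TGACGTCA, read the same on both strands, and its core was searched as TGACG and, for the other strand, as CGTCA, so that each full element also counts as a core. Each line gives 100 bases, from 130 to 31 bases before the start, read from RefSeq for GRCm38.p6 in the direction of the gene, with these letters in capitals. The stretches are chr10:5639088-5639187, plus strand, for Vip, chr13:99900714-99900813, minus strand, for Cartpt, chr16:23890875-23890974, minus strand, for Sst and chr19:3414575-3414674, minus strand, for Gal.
Vip: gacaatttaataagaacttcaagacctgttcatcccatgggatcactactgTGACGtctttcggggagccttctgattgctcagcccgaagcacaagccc
Cartpt: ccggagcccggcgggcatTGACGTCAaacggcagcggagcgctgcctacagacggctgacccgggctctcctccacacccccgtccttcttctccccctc
Sst: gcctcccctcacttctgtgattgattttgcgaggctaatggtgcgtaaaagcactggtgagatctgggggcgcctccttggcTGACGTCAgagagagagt
Gal: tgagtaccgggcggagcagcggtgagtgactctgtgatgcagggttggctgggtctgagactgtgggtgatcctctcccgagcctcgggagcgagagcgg
The full element began 112 bases before the start in Cartpt and 48 bases before it in Sst, and Vip held the core alone, 79 bases before the start. The table held an upstream window for 8 of the 10 genes, all but Grp and Penk. Within 250 bases before the start, 2 of the 8 held the full element and 6 held at least the core: Nmu at 114 bases, Nos1 at 130 and Tac1 at 197 and 43 were the others. Over all 32851 windows of that length in the table, which holds several starts for some of its 27025 genes, 1.55% held the full element and 17.8% the core. The full element stood before Cartpt, which was higher in ENCDC, and before Sst, whose mean was lower there. A match describes the letters only, since no binding was measured.

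Nos1, the enzyme that makes nitric oxide in neurons, had the smallest SD of the 6 in each group. Its log2 level was 8.16, 7.81, 7.59 and 7.65 on YFP-positive arrays 1 to 4, against 5.14, 4.95 and 4.87 on YFP-negative arrays 1 to 3. Every YFP-positive array was therefore at least 2 log2 units above every YFP-negative array. Mean levels were 7.80 ± 0.26 (SD, n = 4) in YFP-positive samples and 4.99 ± 0.14 (SD, n = 3) in YFP-negative samples, a log2 fold change of 2.81 ± 0.15 SE (limma adjusted p = 5.97e-05). The probe sets of the other nitric oxide synthases showed no such difference. Nos2, the inducible enzyme, had a log2 fold change of -0.01 (95% interval -0.13 to 0.12). For Nos3, the endothelial enzyme, it was -0.03 (95% interval -0.23 to 0.18). Both were low, with mean levels of 4.66 in each group for Nos2 and of 4.84 (YFP-positive) and 4.87 (YFP-negative) for Nos3. Levels this low can be background, so a difference may not show.

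Vip encodes vasoactive intestinal peptide, which relaxes smooth muscle and drives secretion. It had log2 levels of 9.17, 9.24, 7.91 and 7.77 on YFP-positive arrays 1 to 4, against 4.55, 4.80 and 4.47 on the YFP-negative arrays. YFP-positive arrays 1 and 2 lay above arrays 3 and 4 by more than 1 log2 unit, and all 4 lay far above the YFP-negative arrays. The difference was 15.1-fold (log2 fold change 3.92 ± 0.40 SE, limma adjusted p = 7.96e-04). The SD among YFP-positive arrays, 0.79, was larger than that of 99.7% of all genes.

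Gal encodes galanin, a peptide of enteric inhibitory and secretory neurons, and had the largest difference of the set. Log2 levels were 9.70, 9.64, 9.12 and 8.99 on the YFP-positive arrays, against 4.89, 4.43 and 5.65 on the YFP-negative arrays. Here the spread was wider among the YFP-negative arrays, with an SD of 0.36 on the YFP-positive arrays and 0.62 on the YFP-negative arrays. Its log2 fold change was 4.37 ± 0.31 SE, or 20.7-fold (limma adjusted p = 1.69e-04). On 95% intervals Gal (3.63 to 5.11), Vip (2.96 to 4.87) and Cartpt (2.56 to 3.97) overlapped, and the differences between these 3 were not tested.

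Cartpt, the precursor of the CART peptides, had log2 levels of 9.49, 9.67, 8.88 and 8.53 on the YFP-positive arrays, against 5.79, 5.63 and 6.21 on the YFP-negative arrays. The groups stood apart, and arrays 1 and 2 were again the higher YFP-positive arrays. Its mean was higher by a log2 fold change of 3.27 ± 0.30 SE, or 9.62-fold (limma adjusted p = 4.63e-04). The calls of Nos1, Vip, Gal and Cartpt were kept in each of the 16 alternative analyses, the 7 that leave out 1 array included.

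**Figure D2:**
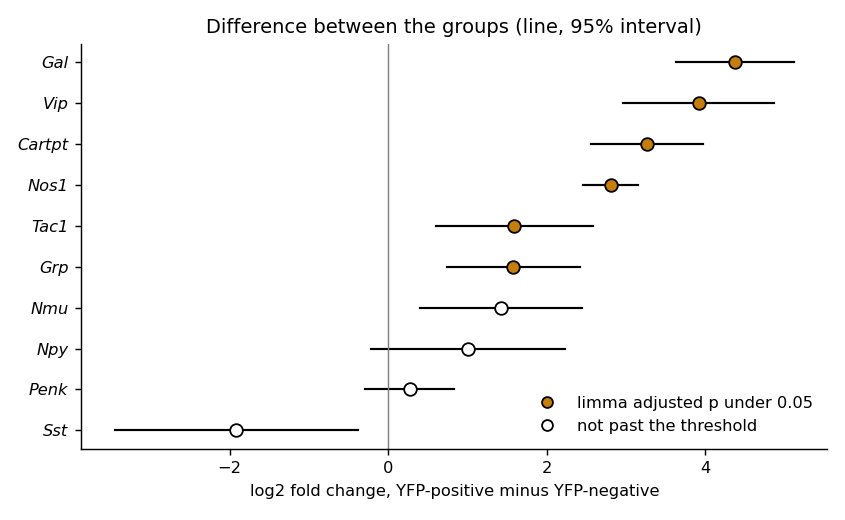
Log2 fold change of each gene, YFP-positive minus YFP-negative, with its 95% interval from the moderated fit; filled points passed a limma adjusted p of 0.05. Gal, Vip, Cartpt and Nos1 form the upper group with intervals above 2.46, Tac1 and Grp follow with intervals that start at 0.60 and 0.74, and the interval of Sst lies below 0.

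Tac1, the precursor of substance P and neurokinin A, was at a high level in ENCDC. It had log2 levels of 9.09, 8.71, 8.52 and 8.23 on the YFP-positive arrays, against 7.41, 7.72 and 5.99 on the YFP-negative arrays. The groups did not overlap, but YFP-negative arrays 2 and 3 differed by 1.72 log2 units, and the level on array 3 was close to that array's median of 5.92 over all genes. The SD was 0.36 on the YFP-positive arrays and 0.92 on the YFP-negative arrays. Between the means lay a log2 fold change of 1.59 ± 0.42 SE (limma adjusted p = 0.0410). The call was lost without any single YFP-positive array or without YFP-negative array 1, with limma adjusted p from 0.0634 to 0.110, and without YFP-positive arrays 3 and 4 together (limma adjusted p = 0.122). Without YFP-negative array 3, the low one, the log2 fold change was 1.07.

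Grp encodes gastrin-releasing peptide, a bombesin-like peptide of enteric neurons. Its log2 levels were 6.94, 6.53, 5.56 and 5.59 on the YFP-positive arrays, against 4.68, 4.37 and 4.67 on the YFP-negative arrays. YFP-positive arrays 1 and 2 were about 1 log2 unit above arrays 3 and 4, and the lowest YFP-positive array was still above every YFP-negative array. The log2 fold change was 1.58 ± 0.36 SE (limma adjusted p = 0.0227). The call was lost without YFP-positive array 2 or any single YFP-negative array, with limma adjusted p from 0.0599 to 0.0933.

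Npy, the precursor of neuropeptide Y, was high on 1 array. It reached a log2 level of 8.18 on YFP-positive array 1 and of 6.59, 6.04 and 5.96 on arrays 2 to 4, against 5.69, 5.59 and 5.77 on the YFP-negative arrays. Arrays 3 and 4 were less than 0.5 log2 units above the YFP-negative arrays. On average the log2 fold change was 1.01 ± 0.52 SE (95% interval -0.22 to 2.23, limma adjusted p = 0.253), and 0.51 without YFP-positive array 1 (limma adjusted p = 0.133). Neuropeptide Y is also made by sympathetic neurons, and Th and Dbh, 2 of 8 listed sympathetic and chromaffin markers, were high on the same array. These enzymes of dopamine and noradrenaline synthesis stood at log2 levels of 6.69 and 7.10 on YFP-positive array 1. Elsewhere in the YFP-positive group Th did not exceed 5.02 or Dbh 5.71, and on YFP-negative arrays the highest values were 4.91 for Th and 4.74 for Dbh. Dbh was at 5.32 or more on every YFP-positive array, so its higher level was not confined to array 1. Neither Dbh (limma adjusted p = 0.0549) nor Th (limma adjusted p = 0.565) passed the threshold. Of the 8 sympathetic and chromaffin markers 1 was higher in ENCDC, Cyb561, and 1 lower, Gata3, close to the 8.39% and 9.11% over all genes. Their summed level, on the linear scale, came to 562 on YFP-positive array 1 and 319 to 342 on its group's other arrays, against 356 to 398 in the YFP-negative samples. Of the other markers Slc6a2, Gata3 and Cyb561 were also highest in the YFP-positive group on array 1. Ddc and Pnmt tied there with another array, and Slc18a1 was highest on array 4. The part of sympathetic cells in the level of Npy was not tested.

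Nmu encodes neuromedin U, a peptide of enteric neurons that acts on smooth muscle and on innate lymphoid cells. It had log2 levels of 6.33, 5.84, 5.73 and 4.39 on the YFP-positive arrays, against 3.99, 3.96 and 4.49 on the YFP-negative arrays. YFP-positive array 4 lay within the YFP-negative range and the other YFP-positive arrays lay above it. Its log2 fold change was 1.43 ± 0.43 SE (95% interval 0.40 to 2.45) and did not pass (limma adjusted p = 0.0671). It passed without YFP-positive array 4 (1.82, limma adjusted p = 0.00382) and without YFP-positive arrays 3 and 4 together (1.93, limma adjusted p = 0.0123).

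Penk, the precursor of the enkephalins, was bright in both groups. Its log2 levels were 9.17, 9.13, 8.46 and 8.43 on the YFP-positive arrays, against 8.80, 8.50 and 8.27 on the YFP-negative arrays, and the groups overlapped. The log2 fold change was 0.28 ± 0.24 SE with a 95% interval from -0.29 to 0.84 (limma adjusted p = 0.500). Without YFP-positive arrays 3 and 4 the log2 fold change was 0.63 (limma adjusted p = 0.0902).

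Sst, the precursor of somatostatin, was the one gene of the set with a lower mean in ENCDC. Somatostatin is made by a class of enteric neurons and by enteroendocrine D cells. Its log2 levels were 7.29, 5.43, 8.33 and 7.51 on the YFP-positive arrays, against 9.35, 9.35 and 8.47 on the YFP-negative arrays. Every YFP-positive array was below every YFP-negative array, but YFP-positive arrays 2 and 3 differed by 2.89 log2 units, and the SD of 1.22 was larger than that of 99.95% of all genes. The mean was 3.77-fold lower (log2 fold change -1.91 ± 0.65 SE, 95% interval -3.44 to -0.39) and did not pass after adjustment over all genes (limma adjusted p = 0.0916). It did not pass in any of the 16 alternatives, with limma adjusted p from 0.0601 to 0.494.

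Markers of enteroendocrine cells were measured beside Sst and Tac1, which those cells also make. Of 13 measured markers 2 were lower in ENCDC, 1 was higher and 10 did not pass, not far from the 9.11% lower and 8.39% higher over all genes. The 2 that fell, named after their values were seen, were Neurog3 (log2 fold change -1.28, limma adjusted p = 0.00349) and Gip (-2.55, limma adjusted p = 0.0210). The one that rose, Insm1, encodes a zinc-finger factor that neurons express as well. On the linear scale the summed level of the list was 1227 to 2280 for YFP-positive samples, against 4573, 5025 and 2077 on YFP-negative arrays 1 to 3. YFP-negative array 3 was the lowest of its group for this sum, and for 5 of the 10 genes: Sst, Tac1, Penk, Nos1 and Vip. Nos1 and Vip were low on every YFP-negative array, at 5.14 or below. The same array was the highest of its group for Gal, Cartpt, Npy and Nmu. The share of all genes that were lowest on it was not counted. Among hormone genes, chosen after their values were seen, the glucagon gene Gcg did not pass (limma adjusted p = 0.106). It was at 7.22 to 8.05 on the YFP-positive arrays, against 9.67, 9.84 and 7.78 on YFP-negative arrays 1 to 3. Gip, another hormone gene, was at 6.76, 5.50, 6.16 and 7.98 on YFP-positive arrays 1 to 4, against 9.43, 9.45 and 8.59 on the YFP-negative arrays. Like Sst, Gip and Gcg were lowest in their group on YFP-positive array 2, whereas the hormone genes Pyy, Sct and Ghrl were lowest on YFP-positive array 1. Intestinal epithelium markers were bright in both groups, with 0 of 14 past the threshold and a mean log2 level of 7.80 to 8.95 on the YFP-positive and 8.47 to 8.59 on the YFP-negative arrays. How much of the Sst, Tac1 and Penk signal came from epithelial cells in either group was not tested, and in sorted bulk samples fewer cells of a type and less RNA per cell cannot be told apart.

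**Figure D3:**
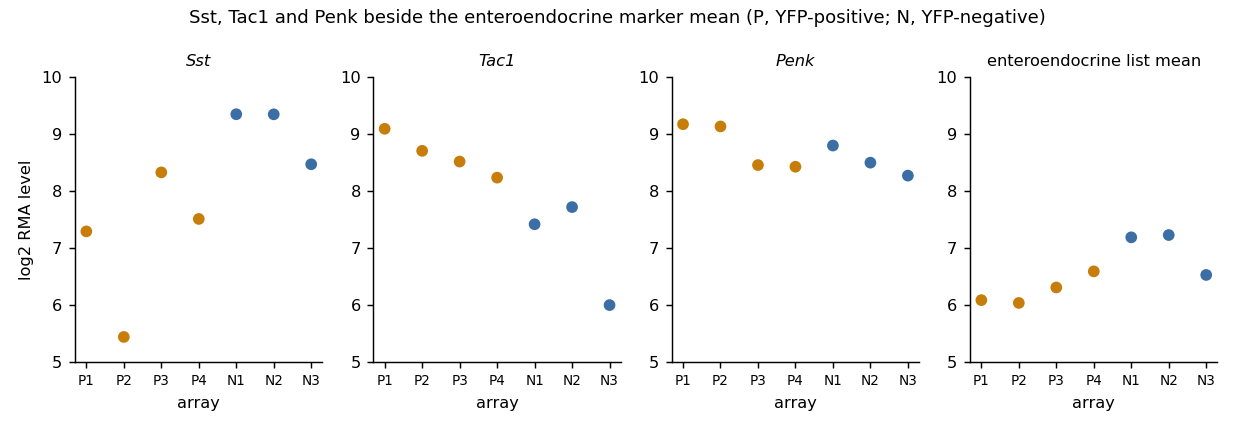
Log2 RMA level of Sst, Tac1 and Penk and the mean log2 level of 13 enteroendocrine markers on each array (P1 to P4, YFP-positive, orange; N1 to N3, YFP-negative, blue). Within the YFP-negative group, array N3 is the lowest in all 4 panels, and Sst spans 5.43 to 8.33 among the YFP-positive arrays.

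The YFP-positive arrays differed among themselves in a pattern that most of the genes shared. For 9 of the 10 genes, all but Sst, arrays 1 and 2 were both above arrays 3 and 4, which held for 12 of 15 pan-neuronal markers and for 19.2% of all genes. The mean log2 level of the pan-neuronal markers, genes such as Tubb3 and Elavl4 that neurons of all classes express, was 9.34, 9.30, 8.85 and 8.63 on YFP-positive arrays 1 to 4, against 5.18 to 5.53 in the YFP-negative group. As deviations from its own YFP-positive mean, this list mean stood at 0.31, 0.27, -0.18 and -0.40 log2 units on arrays 1 to 4. Gal, at 0.34, 0.28, -0.24 and -0.38, and Penk, at 0.38, 0.34, -0.34 and -0.37, moved about as far. Nos1 did so on arrays 1 and 3, at 0.36 and -0.21, but was at 0.01 and -0.15 on arrays 2 and 4. Vip moved further, at 0.65 and 0.71 above on arrays 1 and 2 and at -0.61 and -0.75 on arrays 3 and 4. Npy, Nmu and Sst had the widest spread, with ranges of 2.22, 1.93 and 2.89 log2 units. Glial markers also had higher means on arrays 1 and 2, at 8.28 and 8.18, than on arrays 3 and 4, at 7.88 on both. Marker lists of other bowel cells ran the other way. On YFP-positive arrays 1 to 4 the mean log2 level was 7.80, 8.07, 8.74 and 8.95 for intestinal epithelium, against 8.47 to 8.59 in the YFP-negative group. For smooth muscle it was 7.41, 7.98, 8.54 and 8.96, against 9.25 to 9.70, and for myeloid cells 5.32, 5.81, 6.37 and 6.51, against 9.49 to 9.73. The part of these cells in the levels of the 10 genes was not tested. The SD was larger in YFP-positive than in YFP-negative samples for 8 of the 10 genes and for 10307 of the 19938 genes tested.

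**Figure D4:**
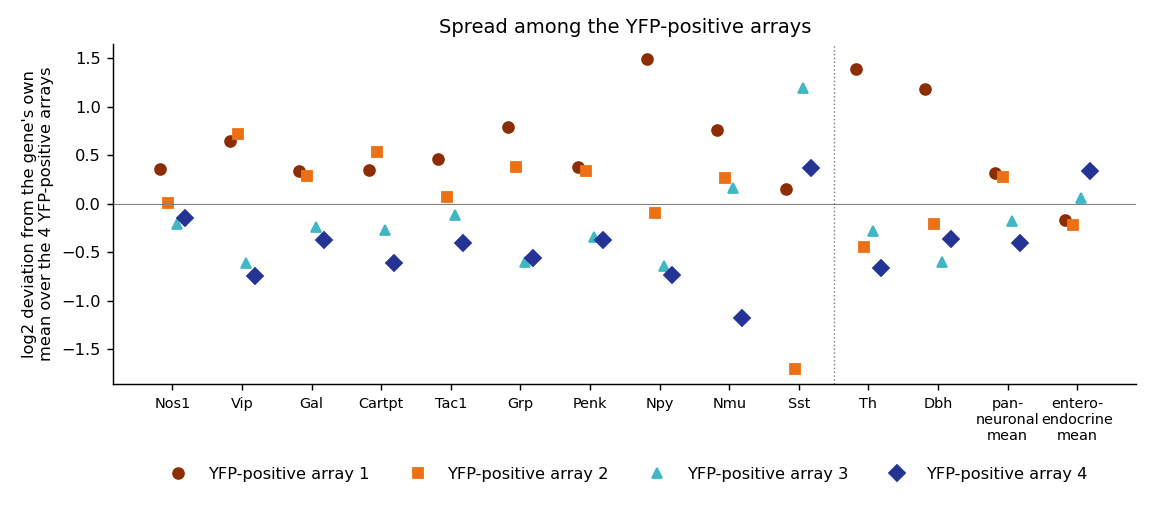
Deviation, in log2 units, of each gene from its own mean over the 4 YFP-positive arrays, with Th, Dbh and the means of the pan-neuronal and enteroendocrine lists to the right of the dotted line. Arrays 1 and 2 lie above arrays 3 and 4 for 9 of the 10 genes, array 1 stands high for Npy, Th and Dbh, and Sst runs from -1.70 on array 2 to 1.19 on array 3.

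All 15 pan-neuronal markers and 7 of 8 measured glial markers were higher in ENCDC, and 10 of 10 myeloid markers were lower, where 8.39% of all genes were higher and 9.11% lower. The median level over all genes lay between 5.87 and 5.91 on the YFP-positive and at 5.91 or 5.92 on the YFP-negative arrays, and correlations over genes were 0.984 to 0.994 within the YFP-positive and 0.980 to 0.992 within the YFP-negative group. With 7 arrays in all, precision is limited by their number. The files give no detection call, so a level near the bottom of the scale can be background and its difference understated.

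Among 12 measured genes that process and store peptides, 6 were higher in ENCDC and 0 lower, with a median log2 fold change of 0.51. Over all genes 8.39% were higher and 9.11% lower. Cadps, which primes dense-core granules for release, led at 3.73 ± 0.12 SE, followed by the granin-family gene Scg3 at 3.61 ± 0.22, Scg5, the chaperone of a prohormone convertase, at 2.36 ± 0.26, and Scg2 at 1.81 ± 0.29. The proprotein convertase gene Pcsk1 had a log2 fold change of 0.47 (95% interval -0.04 to 0.98). The carboxypeptidase gene Cpe and Pam, which amidates the ends of peptides such as vasoactive intestinal peptide and substance P, were bright in both groups, with log2 levels of 9.54 ± 0.13 for Cpe and 7.93 ± 0.09 for Pam on the YFP-positive arrays (SD, n = 4), against 9.86 ± 0.46 for Cpe and 8.15 ± 0.29 for Pam on the YFP-negative arrays (SD, n = 3). Pcsk1, Cpe and Pam were chosen after their values were seen.

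Among 23 measured receptors of these peptides or of related peptides, 3 genes were higher and 1 was lower in ENCDC. These shares were near the 8.39% higher and 9.11% lower over all genes, and the median log2 fold change was 0.14. Adcyap1r1, a receptor that prefers the VIP-related peptide PACAP, rose by 1.24 ± 0.13 SE (limma adjusted p = 8.93e-04), Tacr3, the neurokinin B receptor gene, by 1.07 ± 0.18, and the somatostatin receptor gene Sstr2 by 0.88 ± 0.21. The call of Sstr2 (limma adjusted p = 0.0320) was lost without YFP-positive array 2 or 3, without any single YFP-negative array, and without YFP-positive arrays 3 and 4 together (limma adjusted p of up to 0.121). Tacr3 had log2 levels of 4.95, 5.45, 4.86 and 4.71 on the YFP-positive arrays, against 3.85, 4.09 and 3.84 on the YFP-negative arrays. Vipr2, a receptor of vasoactive intestinal peptide, was the gene that fell, with log2 levels of 5.38, 4.91, 5.37 and 5.38 on the YFP-positive arrays, against 5.67, 6.21 and 5.86 on the YFP-negative arrays (log2 fold change -0.65 ± 0.17 SE, limma adjusted p = 0.0386). The groups did not overlap for it, and its call was kept without YFP-negative array 1 but lost when any other single array, or YFP-positive arrays 3 and 4 together, were left out (limma adjusted p of up to 0.121).

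Subunits of soluble guanylate cyclase, the receptor of nitric oxide, differed in opposite directions. Of 13 genes of nitric oxide synthesis, cofactor supply and cGMP response, 1 was higher and 3 were lower in ENCDC, where 8.39% of all genes were higher and 9.11% lower, and the median log2 fold change was -0.03. The lower genes were the cyclase subunits Gucy1b1 (-1.40 ± 0.24 SE) and Gucy1a1 (-1.05 ± 0.11 SE) and Mrvi1 (-1.33 ± 0.30 SE), a substrate of cGMP-dependent kinase in smooth muscle. Gucy1b1 was at 6.29 to 6.69 on the YFP-positive arrays, against 8.26, 8.23 and 7.31 on the YFP-negative arrays, without overlap, and it no longer passed when YFP-positive arrays 3 and 4 were left out (limma adjusted p = 0.0600). The call of Mrvi1 was lost without YFP-positive array 2 or any single YFP-negative array (limma adjusted p of up to 0.0912), and that of Gucy1a2 without YFP-negative array 2 (limma adjusted p = 0.0679). The higher gene was the alternative alpha subunit Gucy1a2, at 6.86, 6.43, 6.14 and 6.33 on the YFP-positive arrays, against 5.68, 5.37 and 5.68 on the YFP-negative arrays (log2 fold change 0.86 ± 0.18 SE, limma adjusted p = 0.0154). Smooth muscle markers were lower in ENCDC for 6 of 10 genes and without overlap for all 10, with a summed linear level of 3108 to 9556 on the YFP-positive and 11020 to 15225 on the YFP-negative arrays, and their part in the lower nitric oxide response genes was not tested.

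Of 25 measured precursors of other neuropeptides 1 was higher and 0 were lower at an adjusted p under 0.05, where 8.39% of all genes were higher and 9.11% lower. The median log2 fold change was -0.03. The list's mean log2 level was 4.91 to 5.02 over the arrays, below the array medians of 5.87 to 5.92 over all genes. Many of these genes may therefore be near background, with any difference understated. Calcb, which encodes a calcitonin gene-related peptide of sensory and enteric neurons, had log2 levels of 6.42, 5.65, 5.36 and 5.84 on the YFP-positive arrays, against 4.70 to 5.01 on the YFP-negative arrays (log2 fold change 0.91 ± 0.24 SE, limma adjusted p = 0.0405). That call was lost without YFP-positive array 2 or 4, without any single YFP-negative array, and without YFP-positive arrays 3 and 4 together (limma adjusted p of up to 0.145).

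**Figure D5:**
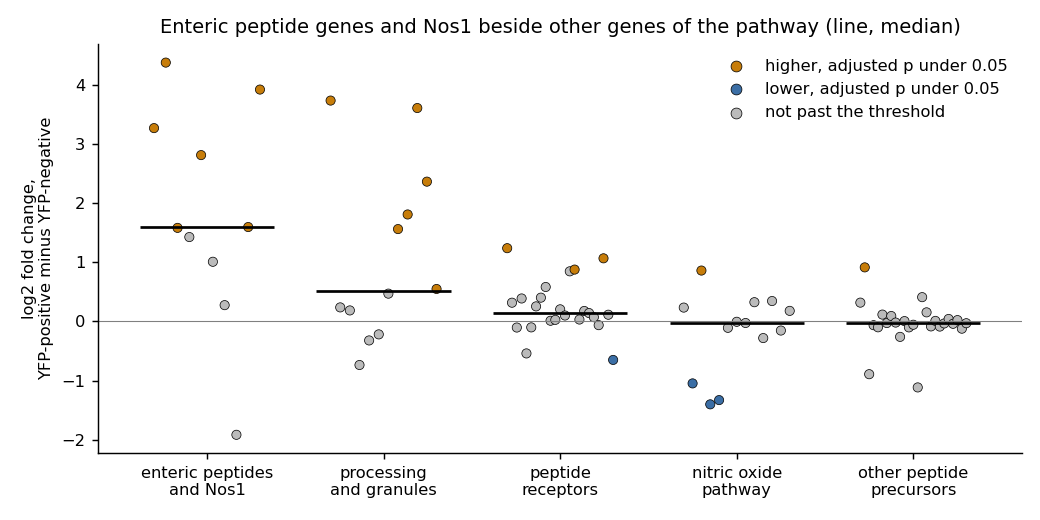
Log2 fold change, YFP-positive minus YFP-negative, of each measured gene in 5 lists, with the list median as a line; orange points were higher and blue points lower at a limma adjusted p under 0.05. The medians are 1.59 for the enteric peptides and Nos1, 0.51 for processing and granule genes, 0.14 for peptide receptors, -0.03 for the nitric oxide pathway and -0.03 for other peptide precursors.

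The genes whose pattern over the 7 arrays was closest were found by the root mean square difference of log2 levels after each gene was centred on its own mean. Nos1 had the closest partner of the set, the neuronal small GTPase gene Rab6b at 0.07, followed by Fgf13 at 0.11. Vip was closest to the growth cone gene Gap43 (0.34) and to Scg3 (0.36), and Cartpt to Stmn3 (0.16) and Spock3 (0.17). Gal was closest to the adhesion genes Cdh19 (0.23) and Chl1 (0.24). Cdh19 is on the list of glial markers, and Gap43 and Stmn3 are on the pan-neuronal list. Tac1 was closest to Scg2 (0.29) and Adgrb3 (0.31), Grp to Zcchc18 (0.19) and H2bu2 (0.22), Nmu to Zfp941 (0.37) and Csrnp3 (0.37), and Penk to Hmgn3 (0.08) and Mterf2 (0.09). Npy was closest to Stum (0.32) and Th (0.34). Sst was the furthest from its nearest genes, Xlr at 0.42 and Ccl11 at 0.56. Xlr belongs to a family of near-identical copies that a probe set may not separate. Levels were not scaled by each gene's spread, so a gene that varies widely, such as Sst, tends to lie further from others. A gene that varies little, such as Penk, tends to lie closer. All these patterns share the same 7 samples and the difference between the groups.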

How the data were processed

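Per the labels' protocols, RNA of sorted cells was extracted with Trizol and amplified with a whole-transcriptome kit. The authors deposited log2 levels per probe set, for which the submitters' processing notes name RMA and Affymetrix Expression Console; their versions and the annotation build are not stated in these sources. RMA scaling and amplification can compress differences. Of 35556 probe sets, 21789 were paired with 1 gene symbol, 1621 with several and 12146 were not listed. Entrez identifiers matched the RefSeq gene table for 21698, and 0 symbols differed. Where a gene had several probe sets (999 genes), that of the highest mean over all arrays was kept, leaving 19938 genes.

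Groups were compared with limma 3.58.1 (lmFit, eBayes; R 4.3.3) with the group as the only term, with Benjamini-Hochberg adjustment across the whole table and a threshold of 0.05. Fold changes are YFP-positive minus YFP-negative. The fit was tested on simulated data. Python 3.11.15, pandas 2.3.3, numpy 2.4.6 and matplotlib 3.10.9 were used for the rest. The genes and lists were chosen with earlier results of these data known. Named genes are the 10 genes, up to 4 genes of each list, by size of change among those that passed, Nos2, Nos3, Th and Dbh, and 2 nearest genes for each of the 10; others are said to be chosen after their values were seen. A few list members were not analysed here, and each list is counted over its measured genes. The alternatives were other eBayes options, scalings, filters, probe set rules and weights, a test against a 1.5-fold difference, the replicate number as a block, and arrays left out.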

Additional observations from a re-analysis of the deposited data

Results flagged for a closer look

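Among 44 named genes searched for an array that stands apart in the YFP-positive group of 4, which chance gives in about 1 of 20 groups, 2 were found. Vipr2 was at 4.91 on YFP-positive array 2 and at 5.37 to 5.38 on the others. Cadps was at 8.03 on YFP-positive array 3 and at 8.31 to 8.36 on the others.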

How the results depend on the processing

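Each of the 10 genes kept its direction in every alternative. Direction could not change with other eBayes options, the filter on low genes, the probe set rule or the 1.5-fold test. These leave the log2 fold change of each of the 10 genes as it was. Of 159 values over all alternatives 144 also stayed on their side of the threshold, 12 lost a call (Tac1 and Grp) and 3 gained one (Nmu). Each gain came with YFP-positive array 4 out of the estimate. The count of higher genes among the 10 was 4 to 6 with 1 array left out, and of lower genes 0. With 1 array left out, the other lists gave 0 to 1 higher and 0 to 1 lower other peptide precursors, 2 to 4 higher and 0 to 1 lower receptors, 1 to 2 higher and 2 to 3 lower nitric oxide genes, and 6 higher and 0 to 2 lower processing genes. Higher other precursors numbered 2 after median centring of the arrays and also 2 after a second quantile normalization, and 0 without YFP-positive arrays 3 and 4. Higher receptors numbered 5 with arrays centred on their medians, and lower receptors 0 without YFP-positive arrays 3 and 4. Array weights gave 1 lower processing gene. The test against a 1.5-fold difference left 0 higher other precursors, 1 higher and 0 lower receptors, and 0 higher and 1 lower nitric oxide genes. It called 469 higher and 558 lower genes of all tested, against 1672 and 1817 without that minimum. The cause of these changes was not tested. The labels do not say whether same-numbered samples were paired. Deviations of same-numbered arrays correlated at 0.01, -0.09 and 0.04, and the highest correlation, 0.27, joined YFP-positive array 2 and YFP-negative array 1. So few values, from different cells, cannot decide whether samples were paired. Only the YFP-positive group has a replicate 4, so the replicate block takes up that array. Its log2 fold changes therefore equal those without YFP-positive array 4, and it is not a separate check of them. With the block 7 of the 10 genes were higher, with Nmu added at 1.82 (limma adjusted p = 0.0232). Under it 0 other precursors were higher, 0 receptors lower and 0 nitric oxide genes higher. Nmu was below the filter on genes of lowest mean and has no value there, and no gene of the 10 had another probe set to test.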
